A study of Mus musculus with 16 samples.

Results

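The 6 genes described here were listed together as plasminogen activation system genes. They were taken by gene symbol from a table of 46348 genes measured in 16 libraries of MEC1, a mouse epicardial cell line. They are Plau (urokinase), Plat (tissue plasminogen activator), Plaur (the urokinase receptor), Serpinb2 (plasminogen activator inhibitor type 2), Serpine2 (protease nexin-1) and Serpinf1 (pigment epithelium-derived factor). Serpinf1 encodes a serpin that does not inhibit proteases, and it is described here as a member of the list only. Each symbol had 1 row. The libraries form 8 groups of 2 biological replicates. The siRNA was directed at PRMT1, at p53, at both, or was a control, and each of these 4 settings was sequenced without and with TGF-beta. The TGF-beta dose and duration, the siRNA sequences and the time after transfection are not given in the sources used here, and all groups are cultures of 1 cell line, each transfected with siRNA. PRMT1 is an arginine methyltransferase, p53 (gene Trp53) is a stress-responsive transcription factor, and the series title places both in a pathway that controls epicardial invasion and cell fate.

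Plasminogen is a circulating proenzyme that urokinase and tissue plasminogen activator cleave to plasmin, a protease that dissolves fibrin and degrades or activates pericellular matrix components. Urokinase acts largely at the cell surface, where it binds its receptor, while serpins such as plasminogen activator inhibitor type 2 and protease nexin-1 block the activators. Pericellular proteolysis of this kind is known for its part in cell migration and tissue remodelling, and TGF-beta is a known regulator of several of its genes.

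Library totals ran from 19617874 to 30759317 counts. Prmt1 stood at 48.1% of its control level after PRMT1 siRNA without TGF-beta and at 43.5% with it, and Trp53 stood at 40.2% and 44.9% after p53 siRNA. Trp53 was at 104% of the matched control after PRMT1 siRNA without TGF-beta and at 128% with it. Prmt1 was at 94.6% after p53 siRNA without TGF-beta and at 130% with it, where its 2 libraries lay far apart (mean 224 CPM, SD 67.7). The part of these changes in the results below was not tested. Under both siRNAs, Prmt1 was at 46.3% and 37.5% and Trp53 at 65.5% and 60.8% of the matched control. Trp53 was thus less reduced there than under p53 siRNA alone. In comparisons of both siRNAs with p53 siRNA, and in PRMT1 by p53 siRNA interactions, this and PRMT1 siRNA cannot be told apart. All 13 epicardial and mesothelial markers were measured above the count filter, and their summed level was 2352 to 2388 CPM (counts scaled to library size) in untreated controls and 359 to 374 CPM with TGF-beta. Untreated sums were 1731 to 1824 CPM under PRMT1 siRNA, 2527 to 2630 under p53 siRNA and 2211 to 2217 under both. Some of the markers were scarce: Aldh1a2, Krt8 and Krt19 had medians of 0.42, 0.55 and 0.68 CPM over the libraries. Endothelial and haematopoietic markers summed to at most 9.27 and 4.15 CPM in any library, with Tie1 and Adgre1 at 0 throughout. Kdr was the highest endothelial marker, at 2.92 to 7.47 CPM. Of the cardiomyocyte markers, Tnnt2 alone exceeded 1 CPM, and it ranged from 1.95 to 139.8 CPM. The part of these marker changes in the results below was not tested, and in bulk RNA fewer cells of a type and less RNA per cell cannot be told apart. The 2 libraries of the p53 siRNA group with TGF-beta differed by a root mean square of 0.80 log2 units, against 0.34 to 0.43 in the other groups. Replicate 2 lay farther from the other 3 treated groups (0.66 to 0.84) than replicate 1 did (0.41 to 0.55). Leaving out either one lowered the common biological coefficient of variation from 0.115 to 0.0602 (replicate 1) or 0.0604 (replicate 2). Values without each of these libraries are given below for the results that they change most, and "15 libraries" means without replicate 2. Such fits leave 1 library in that group and hold no measure of its spread, which is taken from the other groups. Calls in them are therefore not results. Any adjusted p below from a fit that leaves 1 library in a group has the same limit.

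Promoter sequence was at hand for 4 of the 6 members (RefSeq, GRCm38.p6). Plaur, Serpinb2 and Serpinf1 are printed because they were called higher with TGF-beta in at least 2 siRNA settings. For the scarce Serpinb2 these calls involve the groups through which it passed the count filter, so they support nothing and its stretch is printed as a description. Each is written 5′ to 3′ on the gene's strand, with capitals marking matches to 4 motifs searched on both strands. For AP-1, a factor family of immediate responses, the letters were TGANTCA. For SMAD proteins, which carry the TGF-beta signal to the nucleus, they were CAGAC. For Sp1, a factor of many housekeeping promoters, they were GGGCGG. For the box that sets the start site in some promoters they were TATAAA. The Plaur stretch is chr7:24462233-24462482 (plus strand), the Serpinb2 stretch chr1:107511173-107511422 (plus strand), and the Serpinf1 stretch chr11:75422702-75422873 (minus strand), the last held to the 172 bases upstream of the annotated GENCODE start.
Plaur: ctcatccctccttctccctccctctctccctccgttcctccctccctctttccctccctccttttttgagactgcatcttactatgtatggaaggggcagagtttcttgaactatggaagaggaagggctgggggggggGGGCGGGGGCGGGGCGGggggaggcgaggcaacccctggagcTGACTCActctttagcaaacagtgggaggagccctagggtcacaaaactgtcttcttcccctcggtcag
Serpinb2: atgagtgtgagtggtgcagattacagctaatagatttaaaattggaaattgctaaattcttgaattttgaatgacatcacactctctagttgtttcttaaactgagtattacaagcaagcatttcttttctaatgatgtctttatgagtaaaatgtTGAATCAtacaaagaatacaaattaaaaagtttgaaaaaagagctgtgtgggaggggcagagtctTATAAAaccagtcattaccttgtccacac
Serpinf1: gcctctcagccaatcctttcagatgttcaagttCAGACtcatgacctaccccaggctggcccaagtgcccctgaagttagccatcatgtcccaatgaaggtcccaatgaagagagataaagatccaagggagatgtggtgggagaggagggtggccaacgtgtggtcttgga
The Plaur stretch held TGACTCA 69 bases before the RefSeq start site and 3 GGGCGG matches, the last 2 of which share 1 base while none overlaps the AP-1 match. The Serpinb2 stretch held TGAATCA and, 29 bases before the start site, TATAAA. The Serpinf1 stretch held 1 CAGAC and none of the other 3 motifs. CAGAC was absent from the Plaur and Serpinb2 stretches, as were TATAAA from that of Plaur and GGGCGG from that of Serpinb2. Among 32851 promoter windows of 250 bases, 6.75% held TGANTCA, 42.2% CAGAC, 32.7% GGGCGG and 12.4% TATAAA. Among windows of 172 bases, 32.2% held CAGAC. These are matches of letters only.

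A gene is called here at a Benjamini-Hochberg adjusted p below 0.05 in edgeR's quasi-likelihood test over 15494 genes. Serpine2 had too few counts to be tested, so 5 of the 6 members were. Serpinb2 passed the count filter only through the groups in which it was high, so it had to differ there and is left out of the counts here. With TGF-beta under control siRNA, 3 of the other 4 tested members were called higher, against 17.8% of all genes tested. The counts were 4 of 4 under PRMT1 siRNA (16.3% of all genes), 3 of 4 under p53 siRNA (23.3%) and 4 of 4 under both siRNAs (15%), and none of the 4 was called lower in any setting (20.6%, 16.2%, 22% and 16.3% of all genes were). The median log2 change of these 4 members was 1.26, 1.12, 1.72 and 1.10 in the same order, against -0.01, -0.01, 0.02 and -0.02 over all genes. Plau, Plaur and Serpinf1 were called in all 4 settings. The members were chosen with earlier results of these data known. These counts and medians, and the member counts below, are therefore descriptions. Set against all genes, they support no statement about the system as a whole, and Serpinf1, which does not inhibit proteases, is among the 4.

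**Figure D1:**
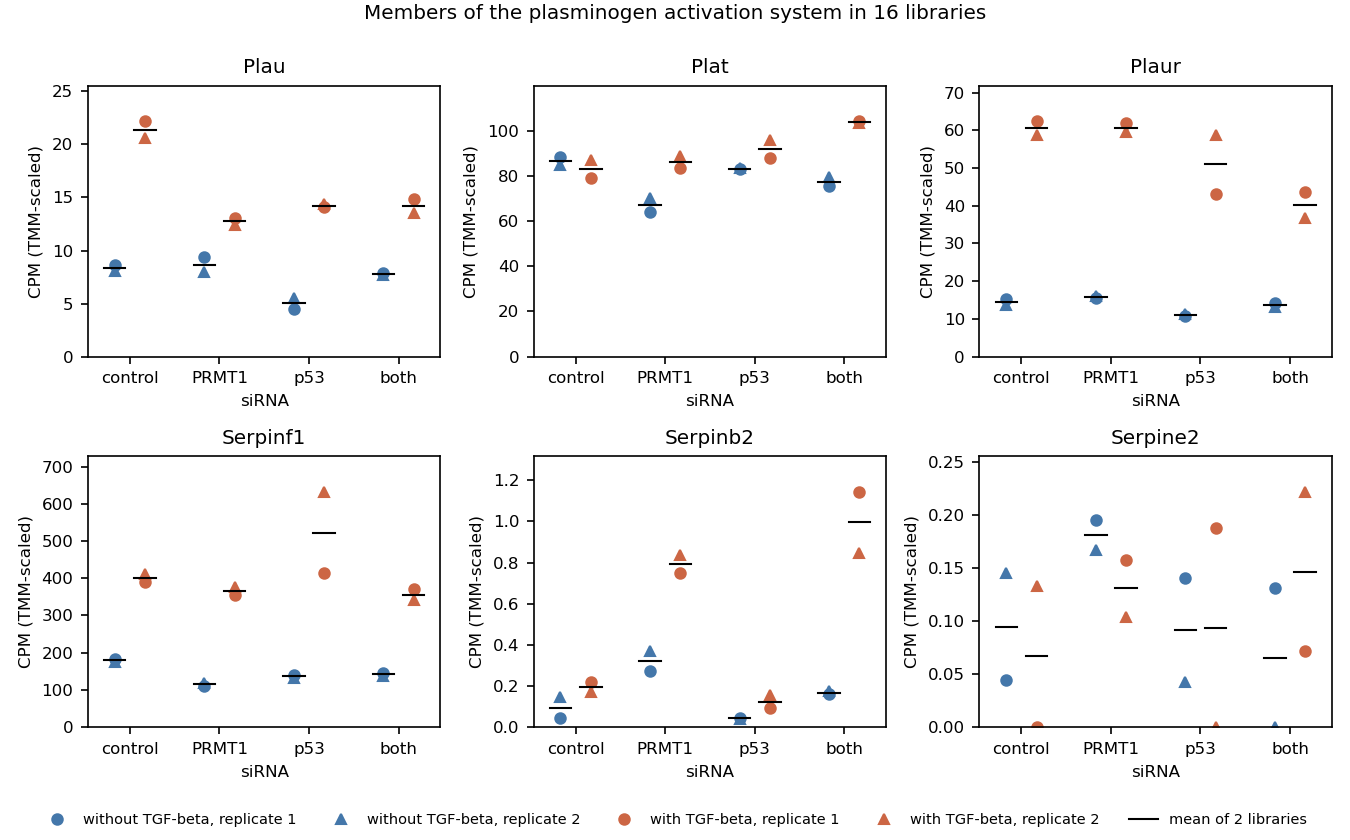
Level of each of the 6 genes in CPM (y axis, starting at 0) by siRNA (x axis), with blue for libraries without and orange for libraries with TGF-beta, circles for replicate 1, triangles for replicate 2 and bars for the mean of 2 libraries. Plau, Plaur and Serpinf1 lie higher with TGF-beta at every siRNA. Plat overlaps under control siRNA and lies higher with TGF-beta under PRMT1, p53 and both siRNAs, though under p53 siRNA this was not called. Serpine2 stays below 0.23 CPM.

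Plau encodes urokinase, the activator that works at the cell surface, and lies at chr14:20836662-20843389 on the plus strand (mm10). It rose with TGF-beta in all 4 settings, and every siRNA combination left it below the control level once TGF-beta was present. Without TGF-beta it stood at 8.63 and 8.04 CPM under control siRNA, and with TGF-beta at 22.2 and 20.6 CPM. The PRMT1 siRNA libraries stood at 9.36 and 7.96 CPM without and at 13.1 and 12.4 CPM with TGF-beta. The p53 siRNA libraries stood at 4.49 and 5.52 CPM without and at 14.1 and 14.4 CPM with it. In all 4 settings the treated and untreated libraries did not overlap, and the treated controls were the highest of the 16 libraries. With 2 libraries a group, such separation is weak. The untreated libraries of both siRNAs and of control did not overlap for Plau either, where the difference was not called (edgeR, adjusted p = 0.697). The share over all genes is not given, so a lack of overlap is a description here and below. Under both siRNAs the levels were 7.85 and 7.65 CPM without and 14.9 and 13.5 CPM with TGF-beta.

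The TGF-beta response of Plau was 1.36 ± 0.11 log2 units (SE, 2 libraries a group, adjusted p = 1.95e-06) under control siRNA and 0.56 ± 0.11 (adjusted p = 0.00262) under PRMT1 siRNA. It was 1.50 ± 0.12 under p53 siRNA and 0.87 ± 0.11 under both (adjusted p = 1.07e-06 and 9.41e-05). The difference between the PRMT1 siRNA and control responses was itself called, at -0.80 ± 0.16 (adjusted p = 0.0271, against 0.781% of all genes called lower), and was the 1 called interaction among 25 tests of the members. That call was lost without any 1 of its 8 libraries. The difference was -0.80 without treated p53 siRNA replicate 1 and -0.79 with 15 libraries. The interactions of p53 siRNA and of both siRNAs with TGF-beta were 0.14 ± 0.16 (adjusted p = 0.597) and -0.49 ± 0.16 (0.248). The PRMT1 by p53 siRNA interaction was 0.74 with TGF-beta (0.0544), 0.72 without treated p53 siRNA replicate 1 and 0.76 without replicate 2. Without TGF-beta it was 0.57 (0.525), with 0.57 and 0.59 in the same order.

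**Figure D2:**
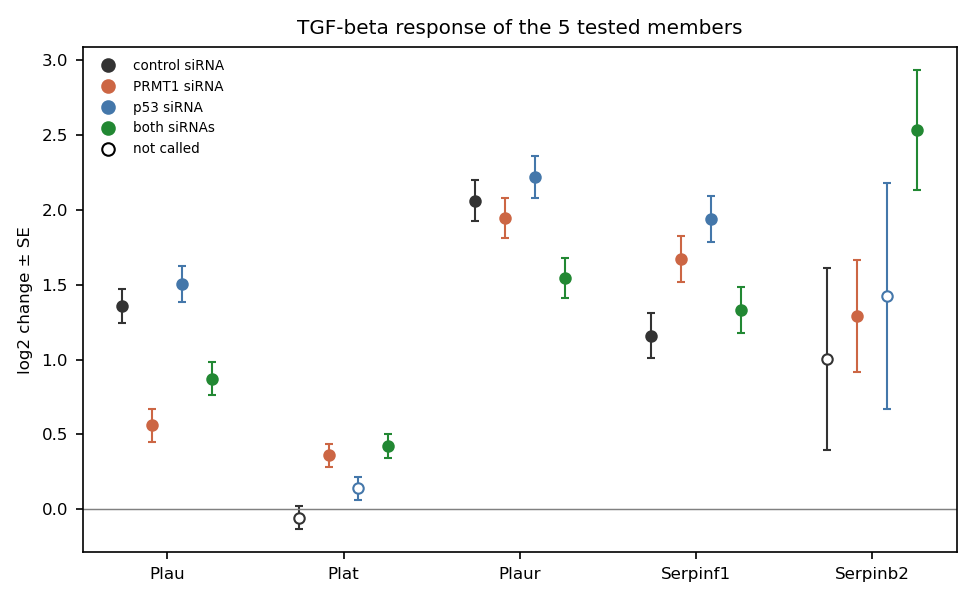
Log2 change with TGF-beta (y axis, points with SE bars) of the 5 tested genes (x axis), coloured by siRNA, with open circles where the change was not called. For Plau the point under PRMT1 siRNA, 0.56, lies below the control point, 1.36, while the Plaur points lie between 1.55 and 2.22.

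With TGF-beta present, Plau was lower than control by -0.74 ± 0.11 log2 units after PRMT1 siRNA (adjusted p = 0.00135), where 6.53% of all genes were called lower. It was lower by -0.59 ± 0.11 after p53 siRNA (0.0126, with 2.39% called lower) and by -0.59 ± 0.11 after both (0.00456, with 5.35%). Without TGF-beta, p53 siRNA lowered it by -0.73 ± 0.12 (0.0111, with 1.29% called lower), whereas PRMT1 siRNA gave 0.06 ± 0.12 (0.835) and both siRNAs -0.10 ± 0.12 (0.697). With PRMT1 siRNA added to p53 siRNA without TGF-beta, it was 0.63 ± 0.12 higher than under p53 siRNA alone (0.00791, with 5.51% called higher). Trp53 stood at 65.5% of control under both siRNAs and at 40.2% under p53 siRNA. The added PRMT1 siRNA and the weaker loss of Trp53 cannot be told apart. The p53 siRNA call with TGF-beta was lost with only the groups of the contrast in the fit (0.694). The PRMT1 siRNA effect with TGF-beta kept its call whichever of its libraries was left out. The p53 siRNA calls were lost without either control library of the same medium, and the one without TGF-beta also without p53 siRNA replicate 1 (adjusted p 0.0509 to 0.167). With TGF-beta, the call for both siRNAs was lost without control replicate 1 or replicate 2 of the double siRNA group (0.0531 and 0.0734), and the rise on adding PRMT1 siRNA without p53 siRNA replicate 1 or double siRNA replicate 1 (0.0958 and 0.0721).

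Plat encodes tissue plasminogen activator, the fibrin-dependent activator, and lies at chr8:22757744-22782848 (plus strand). It ranged from 64.3 to 104.3 CPM over the 16 libraries, and its TGF-beta response was called under PRMT1 siRNA and under both siRNAs. Control libraries stood at 88.5 and 84.9 CPM without and at 79.3 and 87.4 CPM with TGF-beta, which overlap. PRMT1 siRNA libraries stood at 64.3 and 70.5 CPM without, the lowest 2 of the 16, and at 83.8 and 89.1 CPM with TGF-beta. Under p53 siRNA Plat was at 83.2 and 83.6 CPM without and 87.9 and 95.9 CPM with TGF-beta. Under both siRNAs it was at 75.6 and 79.5 CPM without and at 104.3 and 103.4 CPM with TGF-beta, the highest 2 of all libraries.

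The response of Plat was -0.06 ± 0.08 log2 units under control siRNA (adjusted p = 0.61), with a 95% interval of -0.23 to 0.11, and 0.14 ± 0.08 under p53 siRNA (0.169). It was 0.36 ± 0.08 under PRMT1 siRNA (0.00428) and 0.42 ± 0.08 under both (0.00141). The differences of the last 2 from the control response were 0.42 ± 0.11 and 0.48 ± 0.11, and neither was called by edgeR with 16 libraries (0.0792 and 0.0707). Both were called in DESeq2 (0.0103 and 0.00229) and with only the groups of the contrast (0.00753 and 0.0335). Neither was called with DESeq2's size factors, no count filter or the replicate number as a block, nor without any 1 library of its own groups. They were 0.42 and 0.48 without treated p53 siRNA replicate 1, and 0.43 and 0.49 without its replicate 2. The p53 siRNA response was 0.21 without replicate 1 and 0.07 without replicate 2. PRMT1 siRNA lowered Plat by -0.36 ± 0.08 without TGF-beta (0.0134, against 5.85% of all genes called lower), a call lost without any 1 of the 4 libraries (0.0541 to 0.17) and with no count filter (0.0657). Both siRNAs raised it by 0.32 ± 0.08 with TGF-beta (0.0214, against 7.71% called higher), a call lost without control replicate 1 or either double siRNA library (0.105 to 0.193). The response under PRMT1 siRNA was lost without replicate 1 of the untreated PRMT1 siRNA group (0.0655).

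Set against each other per transcript length, Plau made up a mean of 9.39% of the summed Plau and Plat level in untreated controls and 21.7% with TGF-beta. The share was 12.2% and 13.8% under PRMT1 siRNA, 6.07% and 14.3% under p53 siRNA, and 9.73% and 12.8% under both. The level of this share depends on the length taken for Plat: with union exon lengths the control values were 20.2% and 40.4%. The treated control libraries had the highest share under both lengths.

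Plaur encodes the receptor that holds urokinase at the cell surface and lies at chr7:24462500-24475874 (plus strand). It rose with TGF-beta at every siRNA, with the largest control response of the 5 tested genes. Control libraries stood at 15.2 and 13.8 CPM without and at 62.4 and 58.7 CPM with TGF-beta. PRMT1 siRNA libraries stood at 15.4 and 16.1 CPM without and 62.0 and 59.5 CPM with it, nearly the control values. The p53 siRNA libraries stood at 10.7 and 11.2 CPM without, the lowest of the 16, and at 43.2 and 58.7 CPM with TGF-beta. Both siRNAs gave 14.3 and 13.1 CPM without and 43.7 and 36.7 CPM with TGF-beta. Treated and untreated libraries did not overlap in any setting, and the 2 p53 siRNA libraries with TGF-beta lay far apart.

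The Plaur response was 2.06 ± 0.14 log2 units under control siRNA (adjusted p = 2.85e-07), 1.95 ± 0.13 under PRMT1 siRNA, 2.22 ± 0.14 under p53 siRNA and 1.55 ± 0.13 under both, all called and all kept when any 1 library of the contrast was left out. Both siRNAs left Plaur below control with TGF-beta by -0.59 ± 0.13 (0.0117), a call lost without either treated control library or replicate 2 of the double siRNA group (0.0505 to 0.149). PRMT1 siRNA alone gave 0.01 ± 0.13 with TGF-beta (0.983), and the direction of that small value turned with the normalization. The p53 siRNA differences of -0.41 ± 0.14 without and -0.25 ± 0.13 with TGF-beta were not called by edgeR with 16 libraries (0.201 and 0.214). Without TGF-beta the difference was -0.41 when treated p53 siRNA replicate 1 was left out and -0.42 when replicate 2 was. With TGF-beta it was -0.49 without replicate 2 but -0.0394 without replicate 1, so it rests on which of the 2 libraries is used. Adding p53 siRNA to PRMT1 siRNA with TGF-beta gave -0.60 ± 0.13, not called by edgeR with 16 libraries (0.0833). It was called in DESeq2 (0.00593), with no count filter (0.000737) and with only the groups of the contrast (0.00153). It was not called with DESeq2's size factors or with the replicate number as a block. The value was -0.60 without treated p53 siRNA replicate 1 and -0.59 without replicate 2. The interaction of p53 siRNA with TGF-beta for Plaur was 0.16 (0.615), 0.37 without replicate 1 and -0.07 without replicate 2. That of PRMT1 and p53 siRNA with TGF-beta was -0.35 (0.22), -0.56 and -0.10 in the same order.

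**Figure D3:**
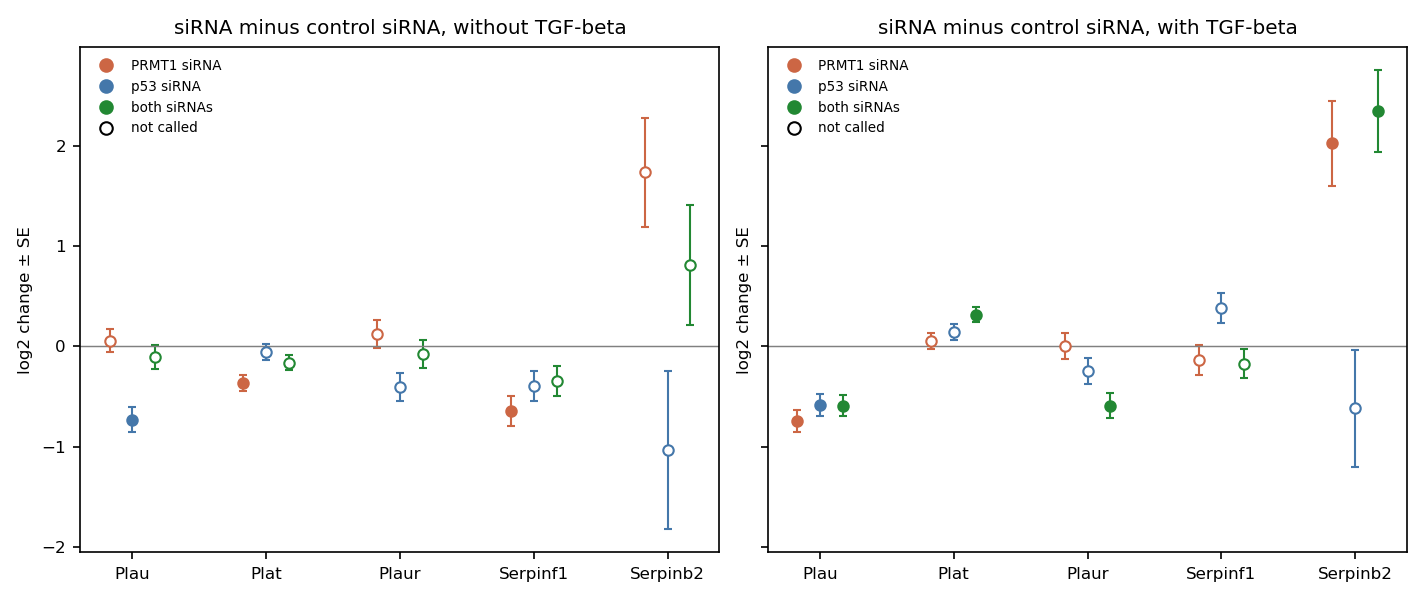
Log2 difference of each siRNA from control siRNA (y axis, points with SE bars) for the 5 tested genes (x axis), without TGF-beta on the left and with it on the right, with open circles where the difference was not called. All 3 Plau points lie between -0.74 and -0.59 with TGF-beta, and the Serpinb2 points under PRMT1 siRNA and both siRNAs are 2.02 and 2.34.

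Serpinb2 encodes an inhibitor of urokinase and tissue plasminogen activator and lies at chr1:107511423-107535479 (plus strand). It was scarce, with 1 to 32 counts a library, and was highest where PRMT1 siRNA and TGF-beta were combined. The control libraries held 1 and 3 counts without and 4 and 4 with TGF-beta. The PRMT1 siRNA libraries held 7 and 9 counts without and 19 and 24 with it. The p53 siRNA libraries held 1 and 1 without and 2 and 3 with it, and the double siRNA libraries 5 and 4 without and 32 and 27 with it. The 4 treated libraries with PRMT1 siRNA did not overlap with any of the other 12.

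The groups compared here are those through which Serpinb2 passed the count filter, so its fitted values are a description and support nothing. With TGF-beta, the fitted difference from control was 2.02 ± 0.42 log2 units after PRMT1 siRNA (adjusted p = 0.00951, against 9.13% of all genes called higher) and 2.34 ± 0.41 after both siRNAs (0.00363). From the summed counts alone, these are CPM ratios of 4.17 (95% interval 1.94 to 10.3) and 5.17 (2.46 to 12.5), intervals that cover counting error only. The first call was lost without either treated control library or replicate 2 of the treated PRMT1 siRNA group (0.0586 to 0.0971), and the second without treated control replicate 2 (0.0544). Against p53 siRNA with TGF-beta, both siRNAs gave 2.96 ± 0.45 (0.00231, against 5.46% called higher), not called with only these groups in the fit (0.422). The TGF-beta response was 2.53 ± 0.40 under both siRNAs (0.000463) and 1.29 ± 0.37 under PRMT1 siRNA (0.0208), the latter lost without any 1 of its 4 libraries (0.0712 to 0.161), in DESeq2 (0.133) and with no count filter (0.118). Under control and p53 siRNA the responses were 1.01 ± 0.61 (0.348) and 1.43 ± 0.75 (0.271). No interaction of Serpinb2 was called, so its responses were not shown to differ between siRNAs.

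Serpine2, which encodes protease nexin-1, an inhibitor of thrombin and urokinase, lies at chr1:79794197-79861181 (minus strand) and was near the limit of detection. It held 0 to 7.07 counts a library, or at most 0.222 CPM. The group means ran from 0.0656 CPM (both siRNAs without TGF-beta) to 0.181 CPM (PRMT1 siRNA without TGF-beta), and 3 libraries were at 0. A difference between groups was not detectable at this depth.

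Serpinf1 encodes a secreted serpin that does not inhibit proteases and is known as an anti-angiogenic and neurotrophic factor, and lies at chr11:75409769-75422702 (minus strand). Per transcript length it was the most abundant of the 6, at 60.9 to 345.0 RPKM (CPM per kilobase), and it rose with TGF-beta in every setting. Control libraries stood at 184.2 and 174.1 CPM without and 389.4 and 411.4 CPM with TGF-beta. PRMT1 siRNA libraries stood at 111.6 and 117.5 CPM without and 354.3 and 375.6 CPM with it. The p53 siRNA libraries stood at 139.7 and 132.7 CPM without and 413.2 and 632.1 CPM with it. Both siRNAs gave 146.4 and 136.5 CPM without and 370.9 and 340.4 CPM with it. No treated library overlapped with an untreated one, and the value of 632.1 CPM came from replicate 2 of the treated p53 siRNA group.

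The responses of Serpinf1 were 1.16 ± 0.15 log2 units under control siRNA (adjusted p = 7.92e-05), 1.67 ± 0.15 under PRMT1 siRNA, 1.94 ± 0.15 under p53 siRNA and 1.33 ± 0.15 under both. The p53 siRNA value was 2.22 without treated p53 siRNA replicate 1 and 1.60 without replicate 2. Without TGF-beta, PRMT1 siRNA lowered Serpinf1 by -0.64 ± 0.15 (0.0197), a call lost without any 1 of its 4 libraries. That difference was -0.64 and -0.66 without treated p53 siRNA replicate 1 and 2. The p53 siRNA and double siRNA differences without TGF-beta were -0.40 ± 0.15 and -0.34 ± 0.15 and were not called by edgeR with 16 libraries (0.244 and 0.248). Both were called with length offsets (0.0114 and 0.0048) but not in DESeq2, with no count filter or with the replicate number as a block. They were -0.40 and -0.34 without treated p53 siRNA replicate 1, and -0.41 and -0.35 without replicate 2. With TGF-beta, the 3 differences from control were -0.13, 0.38 and -0.17 for PRMT1, p53 and both siRNAs, none called by edgeR with 16 libraries. The p53 siRNA value was 0.66 without replicate 1 and 0.0401 without replicate 2, so its size rests on which library is used. It was called with no count filter (0.0146). The PRMT1 siRNA value was called with only the groups of the contrast (0.0123) and with length offsets (0.015), and so was that of both siRNAs (0.048 and 0.0291). Neither of these was called in DESeq2, with no count filter or with the replicate number as a block. Both siRNAs minus p53 siRNA with TGF-beta gave -0.56 ± 0.15 (0.0385, against 4.69% of all genes called lower). It was -0.21 without treated p53 siRNA replicate 2 and -0.83 without replicate 1. With the replicate number as a block it was -0.55 and not called (0.0575). That call was also lost without either double siRNA library (0.14 and 0.264) and with only its own groups in the fit (0.668). The interaction of p53 siRNA with TGF-beta for Serpinf1 was 0.78 (0.115), 1.06 without replicate 1 and 0.45 without replicate 2. That of PRMT1 siRNA with TGF-beta was 0.51 (0.202), with 0.51 and 0.52 in the same order. The PRMT1 by p53 siRNA interaction was 0.70 without TGF-beta (0.525), with 0.70 and 0.73 in the same order. With TGF-beta it was -0.42 (0.206), -0.70 without replicate 1 and -0.07 without replicate 2.

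Per transcript length, Plat ran from 25.5 to 41.3 RPKM, Plaur from 7.11 to 41.4, Plau from 1.92 to 9.47 and Serpinb2 from 0.0200 to 0.573. Serpinf1 thus lay above the other 5 genes in every library, and Plat and Plaur overlapped in range. Over the 16 libraries, log2 CPM of Plaur had a Pearson correlation of 0.93 with Serpinf1 and 0.91 with Plau, while Plat had 0.36 with Plau. Those libraries share the TGF-beta contrast, and the values are descriptions with no test. Among 10744 other genes of at least 5 CPM, the closest to Plaur were Tnfrsf12a (0.997), Actr1b (0.996) and Ehbp1l1 (0.994), to Plau Nptxr (0.983), Qsox2 and Fam149a, to Plat Pmp22 (0.894), Olfml3 and AU020206, and to Serpinf1 Rftn2 (0.993), Nupr1 and Mfge8. For the sparse Serpinb2 they included Ppp1r10 (0.923) and Plekho2.

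Across the siRNA contrasts, 10 of 30 member tests against control siRNA were called with 16 libraries (8 of 24 without Serpinb2), where 8.53% of all genes' tests in these contrasts were. More of the 30 were called without either treated p53 siRNA library, but no share over all genes is given for those fits. For both siRNAs without TGF-beta, edgeR called no member (4.45% of all genes were called), with 1 at an unadjusted p under 0.05 and 0 called by DESeq2. Of 20 tests of a second siRNA added to the first, 3 were called with 16 libraries (2 of 16 without Serpinb2, and 5.54% over all genes). Adding p53 siRNA to PRMT1 siRNA gave no edgeR call among the members without TGF-beta (0.865% of all genes called) or with it (0.452%), with 1 and 2 members at an unadjusted p under 0.05 and 0 and 2 called by DESeq2. Of the other interactions, edgeR called no member for p53 siRNA by TGF-beta (1.02% of all genes), both siRNAs by TGF-beta (1.26%) or PRMT1 by p53 siRNA without (0%) and with TGF-beta (0.762%). In these 4, in the same order, 1, 3, 3 and 1 members had an unadjusted p under 0.05, and DESeq2 called 1, 1, 0 and 1. Over all 25 interaction tests, edgeR called 1 with 16 libraries (1.02% over all genes). Second siRNA effects and interactions were also called more often without either treated p53 siRNA library. No share over all genes is given for those fits, for DESeq2 or for unadjusted p. Those counts are therefore not results about the members.

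A list of 42 further genes around plasminogen held 22 that could be tested, of which 12 were called higher, 6 lower and 4 neither with TGF-beta under control siRNA. Of all genes, 17.8% were called higher and 20.6% lower in that contrast. The list was also chosen with earlier results of these data known, so its counts here and below are descriptions. Plasminogen itself (Plg) reached at most 0.0395 CPM in any library, and all 5 other activating proteases and all 5 substrates listed were too scarce to test. Of the urokinase receptor partners, all 5 tested were called higher. They include the integrin subunits Itgb3 (3.45 ± 0.17 log2 units), Itgb5 (1.61 ± 0.11) and Itgb1 (1.04 ± 0.08), which pair with alpha subunits to bind matrix, and Mrc2 (0.37 ± 0.08), a collagen uptake receptor. Both inhibitors tested moved, Serpini1 (neuroserpin, an inhibitor of tissue plasminogen activator) by 4.01 ± 0.22 and Serping1 (C1 inhibitor) by -1.89 ± 0.18.

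Of the 6 genes listed as clearance receptors, 3 were called higher and 2 lower. Such receptors take up activator and inhibitor complexes. Lrpap1, called lower at -0.30 ± 0.10, encodes a protein that associates with them and is not itself a receptor. Lrp8 rose by 2.60 ± 0.18, Vldlr by 0.55 ± 0.11 and Lrp1 by 0.97 ± 0.30, and Sorl1 fell by 1.08 on the log2 scale. The Lrp1 call was lost without untreated control replicate 1 or either treated control library (0.0809 to 0.168). Of the plasminogen-binding proteins, Plgrkt, a plasminogen receptor, fell by 0.77, while Eno1, Anxa2 and S100a10 gave 0.22, 0.16 and 0.14, none called. On the coagulation side 3 of 5 were called higher and 2 lower: Thbs1 (thrombospondin-1) rose by 2.13 ± 0.19 and F3 (tissue factor) by 0.75 ± 0.08, and Procr (the endothelial protein C receptor) fell by 1.13 and Tfpi, an inhibitor of the tissue factor pathway, by 0.39.

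**Figure D4:**
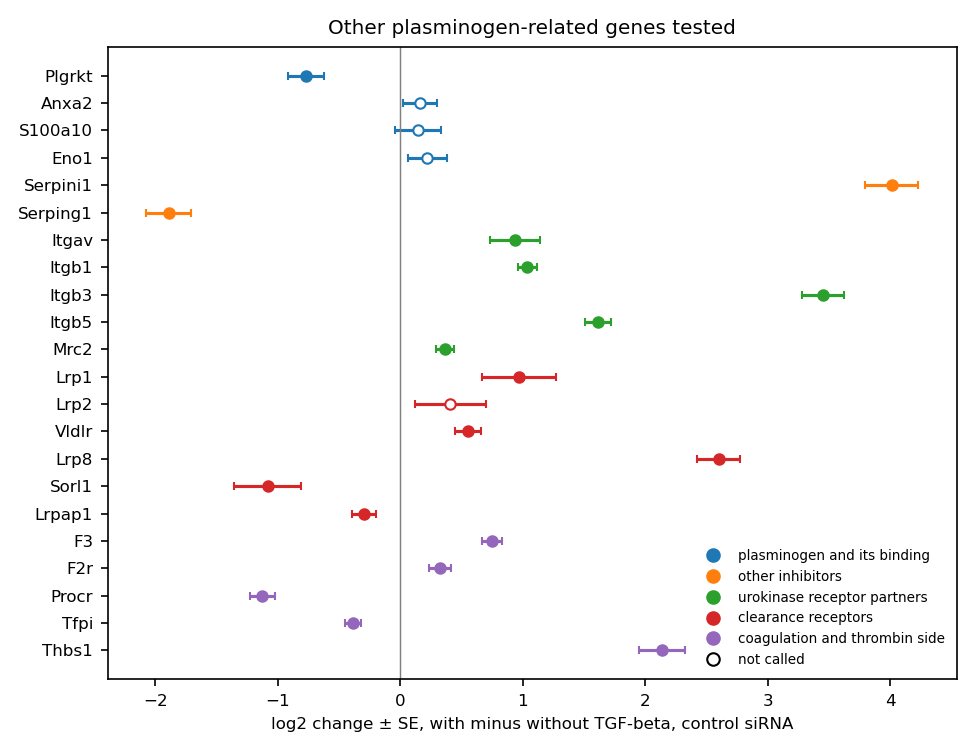
Log2 change with TGF-beta under control siRNA (x axis, points with SE bars) for the 22 tested genes of the wider list (y axis), coloured by role, with open circles where the change was not called. Serpini1 at 4.01 and Itgb3 at 3.45 lie farthest right and Serping1 at -1.89 farthest left.

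In the siRNA contrasts of the wider list, F3 was higher than control with TGF-beta after PRMT1 siRNA, by 1.30 ± 0.08 (adjusted p = 4.33e-06), and after both siRNAs, by 0.53 ± 0.08. Lrp8 was lower with TGF-beta after PRMT1 siRNA (-1.30 ± 0.16) and after both (-1.36 ± 0.16), and so was Serpini1 (-1.22 ± 0.17 and -1.16 ± 0.17). Procr was lower without TGF-beta after PRMT1 siRNA (-1.02 ± 0.10) and after both (-0.74 ± 0.10). Under PRMT1 siRNA 0 of the 22 were called higher and 2 lower without TGF-beta (4.48% and 5.85% of all genes), and 1 higher and 7 lower with it (9.13% and 6.53%). Under p53 siRNA the counts were 1 higher and 1 lower without (1.17% and 1.29%) and 1 higher and 2 lower with TGF-beta (2.82% and 2.39%). Under both siRNAs they were 0 higher and 3 lower without (2.31% and 2.14%) and 3 higher and 6 lower with it (7.71% and 5.35%). The calls under p53 siRNA were F3 (0.41 ± 0.08) and Lrp8 (-0.97 ± 0.19) without TGF-beta and Lrpap1 (0.41 ± 0.10), Serpini1 (-0.72 ± 0.17) and Tfpi (-0.28 ± 0.07) with it. All 5 were lost without at least 2 of the 4 libraries of their contrast, among them each of the 2 control libraries of the same medium. Lrpap1 was 0.57 without treated p53 siRNA replicate 1 and 0.23 without replicate 2.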

How the data were processed

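The authors deposited expected counts per gene for 16 libraries of poly(A)-enriched RNA. TopHat2, Partek and mm10 are named in the submitters' processing notes, without versions. The 6 members and the pathway and marker lists were chosen with earlier results of these data known. Counts were rounded and fitted with edgeR 4.0.16 (R 4.3.3): filterByExpr (15494 genes kept), TMM scaling, 1 mean per group over 16 libraries, and quasi-likelihood F tests of 19 contrasts, two-sided, each adjusted over all genes tested. CPM are TMM-scaled from the unrounded counts. Whether replicate numbers mark a shared day is not given in the sources used here, and they were not used as pairs. Deviations of same-numbered libraries correlated at -0.40 to 0.25, over 0.1 in 6 of 28 group pairs, which cannot exclude a day shared by some groups. Named genes outside the members are, per role, up to 4 with the lowest adjusted p in the control response, and up to 3 per contrast of a siRNA against control. Like genes are the 3 with the highest correlation, of which 1 is not reported here. In simulated counts for PRMT1 siRNA without TGF-beta (15494 genes), 24 of 67 log2 changes of 0.5, 63 of 67 of 1 and 66 of 66 of 2 were recovered, with 10 unchanged genes called. The simulation gave every gene the same spread and changed no sparse gene. Its rates thus do not cover Serpinb2, Serpine2 or the wider gap between the treated p53 siRNA libraries. Lengths came from GENCODE vM21: the longest protein-coding transcript was used, a definition settled after union exon lengths and then median coding lengths had been run and their results seen. It was changed because union exons gave Plat 6241 bases against 2525 for its 1 coding transcript, and medians gave Serpinf1 718 against 1832. Alternatives were DESeq2 1.42.0 and its size factors, no count filter, the groups of the contrast alone, a replicate block, offsets for a trend with transcript length, and leaving out each library.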

Additional observations from a re-analysis of the deposited data

Results flagged for a closer look

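The TGF-beta response of Plau differed between PRMT1 siRNA and control siRNA by -0.80 ± 0.16 log2 units (edgeR, adjusted p = 0.0271), by a test of the difference itself. Both PRMT1 siRNA libraries with TGF-beta, at 13.1 and 12.4 CPM, lay below both treated controls, at 22.2 and 20.6 CPM, whereas the untreated libraries of these siRNAs overlapped. The call was lost when any 1 of the 8 libraries was left out (adjusted p 0.0537 to 0.16).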

How the results depend on the processing

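Of 30 called results of the members, 16 kept their call whichever library of the contrast was left out and 14 did not, and of 35 called results of the other named genes 26 did. Where this left 1 library in a group, that library was assumed to vary like the other groups. Calls of Serpinb2, which support nothing, are among the 30, among both the 16 and the 14, and in the counts below. No share over all genes is given for the alternatives. The counts therefore describe the processing and are not results about the members. The number of called TGF-beta responses of the members stayed at 14 to 17 of 20 under every alternative run. The number of called siRNA effects against control, 10, ranged from 5 (without treated control replicate 1) to 15 over the libraries left out, was 6 without treated control replicate 2, and was 18 with offsets for a trend with transcript length, with 16 and with 15 libraries. Called effects of a second siRNA, 3, ranged from 1 (without replicate 1 of the untreated p53 siRNA or double siRNA group) to 9 (without treated p53 siRNA replicate 1), with 7 without treated p53 siRNA replicate 2, and were 8 and 9 with length offsets in 16 and 15 libraries and 5 with only the groups of the contrast. Called interactions, 1, ranged from 0 (without any 1 of 12 libraries of the control, PRMT1 siRNA or double siRNA groups) to 12 (without treated p53 siRNA replicate 1), with 9 without its replicate 2. They were 2 with DESeq2's size factors, 5 in DESeq2, with no count filter and with only the groups of the contrast, and 7 and 10 with length offsets in 16 and 15 libraries.

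The length behind these offsets was defined 3 ways in turn, and the definition reported was chosen after the other 2 had been seen, so these counts are less firm than the rest. With union exon lengths the siRNA effects numbered 15 and 16 (16 and 15 libraries), the second siRNA effects 5 and 10 and the interactions 5 and 9. With median coding lengths they numbered 16 and 17, 5 and 10, and 5 and 10. The longest coding transcript gave the highest count of siRNA effects of the 3. No call in the report rests on length offsets.

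With the replicate number as a block, 16, 10, 2 and 1 member results were called in the 4 families, and the block ended 1 member call, that of Serpinf1 for both siRNAs against p53 siRNA with TGF-beta, and those of Lrpap1 and Serpini1 for p53 siRNA with TGF-beta. Whether the replicate numbers mark libraries of a shared day is not known. Small uncalled values changed sign. Plaur after PRMT1 siRNA with TGF-beta, 0.01, was -0.0233 with DESeq2's size factors, -0.0204 in DESeq2, -0.21 and -0.20 with length offsets in 16 and 15 libraries (called, adjusted p = 0.035 and 0.0156), -0.14 and -0.13 with union exon lengths, -0.12 and -0.11 with median coding lengths, -0.0024 with only the groups of the contrast, and -0.0339 to 0.0504 over the libraries left out, negative without treated control replicate 2 or treated PRMT1 siRNA replicate 1. Plat after PRMT1 siRNA with TGF-beta, 0.05, was -0.0262 and -0.0216 with length offsets in 16 and 15 libraries and -0.0147 (without treated control replicate 1) to 0.13 over the libraries left out. Without that library the control TGF-beta response of Plat, -0.06, was 0.0121. Plau after PRMT1 siRNA without TGF-beta, 0.06, was -0.000139 without untreated control replicate 2 and ranged from -0.0724 (without PRMT1 siRNA replicate 1) to 0.174. The cause of these changes was not tested. Depth limits Serpinb2 and Serpine2 most, and with 2 libraries a group small changes can be missed.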
